A study of Mus musculus with 2 samples.

Results

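Rtl1, a gene derived from a retrotransposon, is read from the paternal chromosome, and the microRNA genes studied here lie across it. In the annotation used here (M21), 5 of the 6 are on the opposite strand and Mir3071 is on the strand of Rtl1. The 6 members were Mir431, Mir433, Mir127, Mir434, Mir3071 and Mir136. They were taken by symbol in the GENCODE mouse annotation, on chromosome 12 of mm10, among 1973 counted microRNA genes. Of the 6 identifiers, 5 had a row in the count tables. The identifier of Mir136 matched no counted row, so it was not analysed here on its own, and the row of Mir3071, which covers the same bases, carried another version number than in the annotation used here (M21), as did the row of Mir127. The strand that these rows had in the annotation used for counting (M4) is not given in the sources used here. The row of Mir3071 is therefore called the Mir3071/Mir136 row, and its reads cannot be given to one of these genes.

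Short RNA of fewer than 30 bases was sequenced from livers of healthy B6NCrl mouse embryos at embryonic day 11.5. B6NCrl is a C57BL/6 substrain. The labels name no allele and no treatment. Each of the 2 libraries came from pooled embryos of both sexes, 109 of them for replicate 1 and an unstated number for replicate 2. They form 1 group, so the design holds no contrast between conditions. What it can show is how strongly these genes were expressed in the early liver and how far 2 pools differed.

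Background on the locus is as follows. Imprinted genes are expressed from 1 parental copy. In the Dlk1-Dio3 region the protein genes, Rtl1 among them, are active on the paternal chromosome, while the long noncoding RNAs and the microRNAs cut from them come from the maternal one. A microRNA usually recognises targets through its seed, bases 2 to 8, but a microRNA transcribed antisense to a message pairs with it along its whole length and can direct its cleavage. Rtl1 is known for its part in the fetal vessels of the placenta, and miR-127 is the best studied of its antisense microRNAs.

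The mature sequences are printed because they show both properties, a seed for each microRNA and, for 10 of the 12, a full match to Rtl1. They are from RefSeq, build GRCm38.p6, in which all 6 members were found. Each is written 5′ to 3′ with the seed in capitals.

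miR-431-5p: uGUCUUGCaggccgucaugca
miR-431-3p: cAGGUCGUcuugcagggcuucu
miR-433-5p: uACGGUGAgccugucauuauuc
miR-433-3p: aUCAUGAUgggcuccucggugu
miR-127-5p: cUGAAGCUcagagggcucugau
miR-127-3p: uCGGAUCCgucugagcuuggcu
miR-434-5p: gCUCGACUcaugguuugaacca
miR-434-3p: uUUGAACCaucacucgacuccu
miR-136-5p: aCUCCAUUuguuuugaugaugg
miR-136-3p: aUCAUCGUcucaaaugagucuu
miR-3071-5p: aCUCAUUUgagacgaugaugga
miR-3071-3p: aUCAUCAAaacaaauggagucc

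The 12 mature microRNAs had 12 different seeds. None of these seeds occurred in another of the 1679 mature mouse microRNAs of the RefSeq table, in which 72.1% have a seed of their own. The members are thus neighbours on the chromosome and not a seed family. The hairpins were also compared with the 862 RefSeq hairpins that belong to counted genes. The longest run of bases that any of them shared with another of these hairpins outside its own position was 12 bases. No near-identical copy that differed in sequence was therefore found among the hairpins compared. Hairpins of identical sequence were merged before this search, so it could not find an exact copy. Counted genes without a RefSeq hairpin were not searched.

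All 6 hairpins lay inside the coding sequence of Rtl1, which M21 places on the minus strand of chromosome 12 from 109590172 to 109595403. Positions and strands here are those of M21. The hairpin of Mir431 (ENSMUSG00000070080.1) lies at 109590447 to 109590537 and that of Mir433 (ENSMUSG00000070072.1) at 109591715 to 109591838. Mir127 (ENSMUSG00000070076.1) lies at 109592846 to 109592915 and Mir434 (ENSMUSG00000070133.1) at 109594506 to 109594599. These 4 genes and Mir136, at 109595327 to 109595388, are on the plus strand. M21 places Mir3071 at 109595318 to 109595397 on the minus strand, that of Rtl1, while the counted row carries an earlier version of its identifier (ENSMUSG00000070129.1). The 62 bases of Mir136 lie wholly within the 80 bases of Mir3071. From the first to the last member the group spans 4951 bases, with 718 to 1590 bases between the hairpins of neighbouring counted members. The level of Rtl1 itself was not analysed here.

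The spliced Rtl1 transcript of M21 (6358 bases) held a full match to 10 of the 12 mature microRNAs, all inside the coding sequence. The other two are those of Mir3071, which has the same strand as Rtl1. The sites of the most abundant members are given as letters of the Rtl1 message, with the seed match in capitals. Transcript positions count from 1 at its 5′ end: 5072 to 5092 for miR-431-5p, 2642 to 2663 for miR-127-3p, 3749 to 3770 for miR-433-3p and 965 to 986 for miR-434-3p.

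Rtl1 site of miR-431-5p: ugcaugacggccuGCAAGACa
Rtl1 site of miR-127-3p: agccaagcucagacGGAUCCGa
Rtl1 site of miR-433-3p: acaccgaggagcccAUCAUGAu
Rtl1 site of miR-434-3p: aggagucgagugauGGUUCAAa

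The counts are per hairpin gene, so the 5p and 3p arms cannot be told apart, and these arms were picked only to show the pairing. The hairpins of the most abundant genes show where both arms sit, in capitals.

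Mir431 hairpin: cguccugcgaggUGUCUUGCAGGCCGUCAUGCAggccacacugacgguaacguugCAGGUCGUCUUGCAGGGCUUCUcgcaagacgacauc
Mir127 hairpin: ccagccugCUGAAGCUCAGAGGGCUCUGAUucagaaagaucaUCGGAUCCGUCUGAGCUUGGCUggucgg

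Folding energy differed among the members. By RNAfold, Mir127 had a predicted minimum free energy of -35.1 kcal/mol, or -0.50 per base, and 16.6% of 862 counted hairpins had a lower value per base. Mir431 had -43.4 kcal/mol, with 22.3% of hairpins lower per base. Mir433, the longest hairpin at 124 bases, had -0.36 kcal/mol per base, with 72.6% of hairpins lower. Mir434 had -0.40 per base, with 56.0% lower. The hairpins of Mir3071 (-0.44 per base, 38.7% lower) and Mir136 (-0.45 per base, 30.9% lower) lay between these pairs. Their shared row had the lowest level of the members. Any link between folding energy and level was not tested.

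All 5 rows reached the detection limit, 10 counts in each of the libraries, and together they held a few percent of the liver's assigned microRNA reads. Levels are in CPM, counts on the strand of the gene per 1000000 assigned counts of the library. Replicate 1 had 3344673 assigned counts and replicate 2 had 1584499. The members took 105979 of them in replicate 1, or 3.17% (95% exact Clopper-Pearson interval 3.15 to 3.19), and 64145 in replicate 2, or 4.05% (4.02 to 4.08). The mean was 3.61 ± 0.62% (SD, n = 2). These intervals cover counting error only. They did not overlap, so the difference between the libraries was larger than counting error. In whole liver, fewer cells of a type and less RNA per cell cannot be told apart.

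Mir431, a microRNA also known from muscle and neurons, had 32793 counts in replicate 1 and 30514 in replicate 2. These are 9805 CPM in replicate 1 (95% exact Clopper-Pearson interval 9699 to 9911) and 19258 CPM in replicate 2 (19044 to 19473). Its mean of 14531 ± 6684 CPM (SD, n = 2) had the largest SD of the members and ranked 19 among all counted rows by reads on their own strand.

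Mir127 had 51094 counts in replicate 1 and 20387 in replicate 2. Its level of 15276 CPM in replicate 1 was above the 12867 CPM of replicate 2, with a mean of 14071 ± 1704 CPM (SD, n = 2). It was high in both pools, at rank 18 in replicate 1 and rank 20 in replicate 2. The ranges of Mir431 and Mir127 overlapped, so their order by mean was not resolved.

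Mir433 stood at 3487 CPM in replicate 1 (11663 counts) and at 3761 CPM in replicate 2 (5960 counts), with a mean of 3624 ± 194 CPM (SD, n = 2). Mir434 stood at 2403 CPM in replicate 1 (8037 counts) and at 3717 CPM in replicate 2 (5890 counts), with a mean of 3060 ± 929 CPM (SD, n = 2). Their ranges overlapped as well. Both lay below Mir127 in each library, and the mean of Mir127 was 3.88 times that of Mir433.

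The Mir3071/Mir136 row was the lowest, at 715 CPM in replicate 1 (2392 counts) and at 880 CPM in replicate 2 (1394 counts). Its mean was 797 ± 116 CPM (SD, n = 2), and the mean of Mir434 was 3.84 times as high, with ranges that did not overlap. Thus 3 levels could be told apart, Mir431 with Mir127, Mir433 with Mir434, and this row. Mature lengths of 21 or 22 bases made a length correction unnecessary, as each read stands for 1 short RNA.

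**Figure D1:**
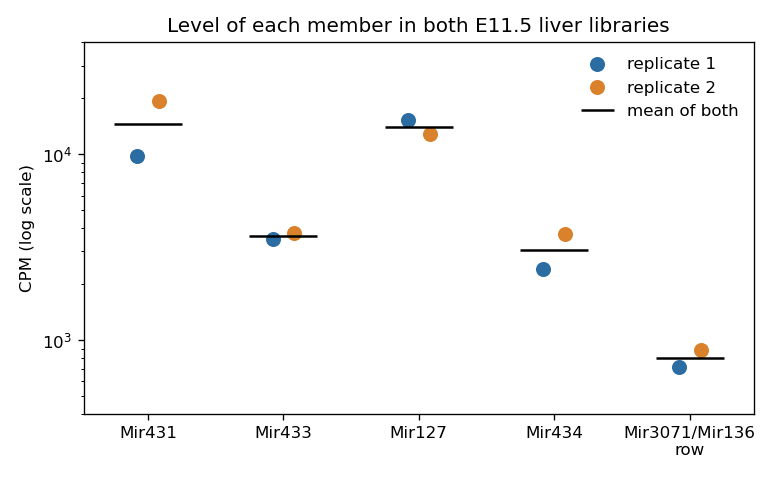
CPM of the 5 counted rows on a log axis, in order along the chromosome, with replicate 1 in blue, replicate 2 in orange and the mean of both as a bar. Mir431 and Mir127 have the highest means (14531 and 14071), and Mir431 has the widest gap between its points.

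Mir432, the other counted gene between Mir431 and Mir3071, is no member. It lies at 109594956 to 109595030 on the plus strand, and had 0 counts in both libraries, a result that leaves room for a level of 0.897 CPM in the first library and 1.89 CPM in the second. The mature microRNA of Mir432 also has a full match in the coding sequence of Rtl1. Its neighbour Mir434, on the same strand, stood at 2403 and 3717 CPM, so an undetected and an abundant gene lay side by side.

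The deposited tables also count reads on the strand opposite to each row. Mir433, Mir127 and Mir434 had 0 reads on the opposite strand in both libraries, and Mir431 had 1 read in replicate 1 and 0 in replicate 2. A count of 0 there allows up to 3 reads. Beside the 2392 and 1394 reads on its own strand, the Mir3071/Mir136 row had 4 opposite-strand reads in replicate 1 and 6 in replicate 2. Reads at this place therefore came nearly all from 1 strand. M21 lists an antisense microRNA gene over 32 of the counted rows, and 0 of these 32 partners had a row of its own. Mir136 was 1 of those partners.

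The make-up of the members' counts differed between the libraries, and these shares do not depend on scaling. In replicate 1, Mir127 made up 48.2% of the members' counts (95% exact Clopper-Pearson interval 47.9 to 48.5) and Mir431 30.9% (30.7 to 31.2). In replicate 2, Mir431 made up 47.6% (47.2 to 48.0) and Mir127 31.8% (31.4 to 32.1). The leading gene was therefore Mir127 in one pool and Mir431 in the other. Mir127 had 1.56 counts for each count of Mir431 in replicate 1 and 0.668 in replicate 2. Of the 10 pairs of members this was the 1 pair whose order turned, and its ratio moved the most, by 2.33-fold.

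The remaining shares moved less. Mir433 held 11.0% in replicate 1 and 9.29% in replicate 2, Mir434 7.58% and 9.18%, and the Mir3071/Mir136 row 2.26% and 2.17%. The row's intervals overlapped, from 2.17 to 2.35% and from 2.06 to 2.29%. Mir433 had 1.45 counts for each count of Mir434 in replicate 1. In replicate 2 it had 1.01, with an interval of 0.976 to 1.05 that includes equality. Since these genes were equal within counting error in replicate 2, Mir433 led clearly in replicate 1 only.

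**Figure D2:**
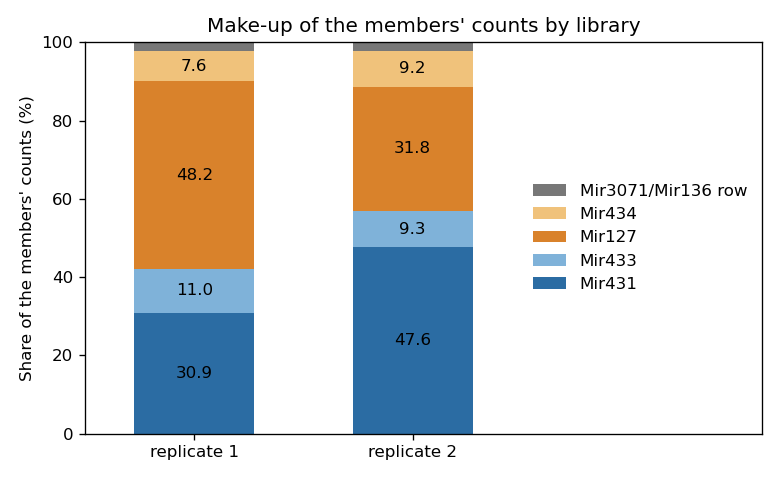
Share of the members' counts, in percent, that each row took in replicate 1 and replicate 2, stacked from 0 to 100. Mir127 is the largest block in replicate 1 at 48.2% and Mir431 in replicate 2 at 47.6%.

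Each gene was also compared between the libraries against all other genes. The fit used an exact binomial test over 454 genes with at least 10 summed counts, with library sizes scaled by the trimmed mean of M values (TMM). Calls needed 2-fold or more together with a Benjamini-Hochberg adjusted p below 0.05. Over all tested genes 33 were called, or 7.27%, 22 of them higher in replicate 2 (4.85%) and 11 in replicate 1 (2.42%). Of the 5 members 1 was called, Mir431, higher in replicate 2. Since 49.1% of all genes had an adjusted p under 0.05 at any fold, a low p alone separates few genes here. The test knows only counting noise and compares these libraries, not conditions.

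Mir431 had a log2 ratio of 1.04, replicate 2 over replicate 1, and its adjusted p by the exact binomial test was too small to be computed as above 0. Of the 257 genes that averaged 100 counts or more, 12 had a larger ratio in either direction. The call rested on the scaling: the log2 ratio was 0.97 with total assigned counts and 0.98 with DESeq2 size factors, both under the 2-fold limit of 1. It was not called either in edgeR's exact test with the biological coefficient of variation set to 0.2 (adjusted p = 0.379).

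Mir434 followed with a log2 ratio of 0.69, and 50 of the 257 genes differed more. The Mir3071/Mir136 row had 0.36 and Mir433 had 0.17. Mir127 was lower in replicate 2, with a log2 ratio of -0.19, against a median of 0.03 over the 257 genes. Its sign was opposite to that of the other members under TMM, total counts and DESeq2 size factors alike. By the exact binomial test, adjusted p-values ran from 5.87e-165 for Mir434 to 9.98e-13 for the Mir3071/Mir136 row among these 4 rows. None of the 4 reached 2-fold. The members' median was 0.36, beside 0.01 over all 454 tested genes, and 4 of 5 members had a ratio above 0, as 51.1% of all tested genes did.

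**Figure D3:**
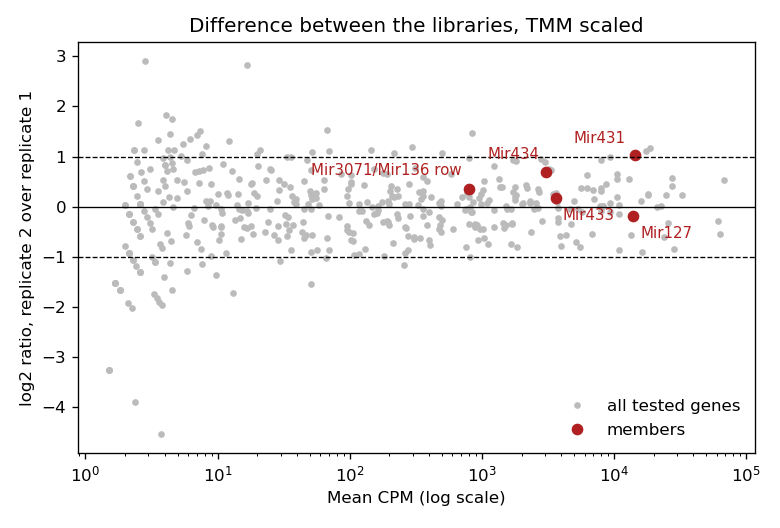
The log2 ratio of replicate 2 over replicate 1 (TMM scaled) against mean CPM on a log axis, for the 454 tested genes in grey and the 5 members in red. Dashed lines mark 2-fold, which Mir431 passes at 1.04 while Mir127 lies below 0 at -0.19.

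Genes nearest to Mir431 in level, by reads on the strand of the row, came from several loci. In the order of mean CPM over both libraries, Mir541 (1.12 times Mir431) and Mir10a (1.11 times) stood just above it, and Mir127 (0.968 times) and Mir93 (0.922 times) just below. Mir541, of the same imprinted region, went the other way from Mir431, with 21440 CPM in the first library and 11020 in the second. Mir10a, from a Hox cluster, had 15850 and 16442 CPM, and Mir93, of a proliferation-linked cluster, 16236 and 10571 CPM. With 2 libraries, likeness in mean level says nothing of a shared pattern across conditions.

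Within the Dlk1-Dio3 region the members took about the same part of the counts in both libraries, though not within counting error. They made up 20.6% of the counts of 51 listed and counted genes of the region in replicate 1 (95% exact Clopper-Pearson interval 20.5 to 20.7) and 21.9% in replicate 2 (21.8 to 22.1). Their share of all assigned counts was 1.28 times as high in replicate 2, while the counted rest of the region went from 12.2% to 14.4% of the assigned counts. By reads on the strand of the row, Mir127 ranked 3 of these 51 in replicate 1 and 4 in replicate 2, and Mir431 ranked 6 and 3. Mir433 ranked 12 in both, Mir434 17 and 13, and the Mir3071/Mir136 row 29 and 25. These values leave out 5 listed genes without a row of their own, whose place is covered by the opposite strand of another row. With those opposite-strand reads added, the members made up 16.7% of the region in replicate 1 and 17.3% in replicate 2, Mir127 ranked 4 and 6, and Mir431 ranked 7 and 4.

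The neighbouring imprinted microRNAs were described from lists by position. On the Meg3 side, upstream of Mir431, 8 listed genes were counted and 7 detected, with 1.08 ± 0.05% of the counts (SD, n = 2) and none of 7 tested genes called between the libraries. The highest there was Mir337, with 3880 CPM in the first library and 3652 in the second, beside 3487 and 3761 CPM for Mir433. On the Rian side, downstream, 3 of 4 counted genes were detected, with 0.463 ± 0.134% of the counts (SD, n = 2), and none of 3 tested genes was called. Mir341 led there with 1963 and 3621 CPM. The larger Mirg cluster farther downstream held 11.8 ± 1.5% (SD, n = 2) with 31 of 34 counted genes detected, and the 4 called genes among its 32 tested ones, like Mir431, had their higher level in replicate 2. Its highest mean on the strand of a counted row was that of Mir411, with 12012 CPM in the first library and 25847 in the second. Opposite-strand reads at the place of Mir409, a gene named here after its values were seen, came to 21494 and 26100 CPM on the same totals, above Mir411 in both libraries.

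The median log2 ratio was 0.01 for the Meg3 side, 0.76 for the Rian side and 0.17 for the Mirg cluster, beside 0.36 for the members. The members' median level of 3624 CPM lay above the median over the 41 detected genes of the other lists, 876 CPM.

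**Figure D4:**
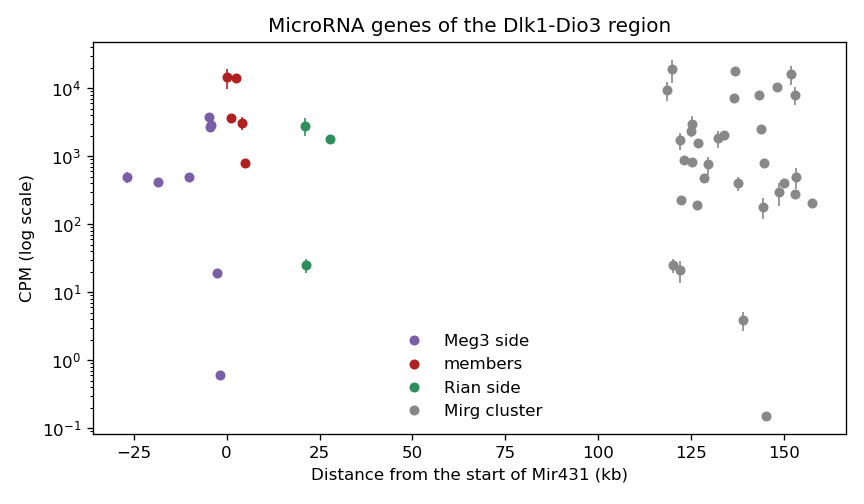
Mean CPM on a log axis of each listed and counted microRNA gene of the Dlk1-Dio3 region against distance from Mir431 in kilobases. Lines join both libraries. Listed genes without a row of their own, Mir409 among them, are not drawn. The members, in red, hold the highest values near position 0 (14531 CPM for Mir431), and the Mirg cluster at the right reaches 18929 CPM for Mir411; 2 genes with 0 counts in both libraries are not drawn.

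The tissue label was checked against marker microRNAs. The hepatocyte list, 5 counted genes with 3 detected, summed to 3.30% of counts in replicate 1 and 3.69% in replicate 2. Mir122, its most abundant gene, had 30679 and 34487 CPM (log2 ratio 0.23). Of the other detected genes, Mir192 had 928 and 1560 CPM (0.81) and Mir194-2 had 1423 and 814 CPM (-0.74). The list's median log2 ratio of -0.30 was that of Mir802, with 9 and 3 counts. Mir194-1, called lower in replicate 2 (-1.37), had 48 and 8 counts. Both were under the detection limit. The erythroid list, 3 of 3 detected, summed to 0.833% and 1.14%. In it Mir144 went from 460 to 1214 CPM and was called (log2 ratio 1.46, above the 1.04 of Mir431), while Mir451a had 7495 and 9793 CPM. Mir486 did not rise, with 372 and 343 CPM (log2 ratio -0.05). The endothelial Mir126a had 57443 and 80051 CPM. The leukocyte list, 3 counted genes with 2 detected, summed to 0.498% and 0.512%, with Mir223 at 4934 and 5087 CPM. That sum leaves out Mir142, a listed gene without a row of its own. Opposite-strand reads at its place came to 140377 in replicate 1 and 62714 in replicate 2. The part of these cell types in the members' values was not tested. Brain and muscle markers are of interest here because imprinted microRNAs of this region are also abundant in those tissues. The summed neural list, 7 counted genes, was 0.0101% of counts in replicate 1 and 0.0110% in replicate 2, with 3 genes at 0 in both libraries. Its 2 detected genes were Mir219a-1 (58.0 and 70.7 CPM) and Mir219a-2 (39.8 and 39.1 CPM). The summed striated muscle list, 6 counted genes, was 0.0714% and 0.0626%, with Mir1a-1, Mir133a-1 and Mir133a-2 at 0 in both. Its 3 other genes were detected: Mir208b (331 and 324 CPM), Mir208a (272 and 157 CPM) and Mir206 (112 and 145 CPM). Mature miR-1, miR-133a, miR-124, miR-9 and miR-219a each come from several gene copies, and reads that map to several places were not counted, so a 0 or a low level of these genes does not show that the microRNA was absent. Mir431 was 1.96 times as high in CPM in replicate 2, and any part of such tissue in its level was not tested.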

How the data were processed

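Raw counts of reads per microRNA gene were deposited for 2 libraries, in 3 columns: either strand, strand of the gene, opposite strand. Reads were aligned to mm10 and counted on GENCODE M4, per the file descriptions the authors deposited; aligner, counter and trimming are not given in the sources used here. The 4 summary classes that name no gene held 73.8% of reads in replicate 1 and 71.0% in replicate 2, including reads mapping to several places, and stayed out of library sizes and tests. Names and positions came from GENCODE M21 (same assembly) by identifier without version, which matched 1894 of 1973 rows, and sequences from RefSeq.

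CPM used the strand of the gene. Libraries were compared with a two-sided exact binomial test (TMM sizes from edgeR 4.0.16, computed on genes with at least 10 summed counts; 0.5 added to each count for the ratio) and Benjamini-Hochberg adjustment. DESeq2 1.42.0 size factors, RNAfold 2.7.2 and Python 3.11.15 were also used. edgeR gave a common biological coefficient of variation of 0.260 over both libraries. The test was tried on simulated counts drawn with counting noise only. That trial says nothing of how the test handles spread between pools. Members and lists were chosen with earlier results of these data known. Named genes were the members, other counted genes in their interval, the 2 genes above and below the most abundant member, the top gene of each region list and marker genes; Mir432 belongs to the second kind. Mir496b, listed with the region, is annotated on chromosome 19 and was left out of it. Alternatives covered scaling, strand column, filter, added count, test and each replicate left out.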

Additional observations from a re-analysis of the deposited data

Results flagged for a closer look

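Opposite-strand reads, counted in a column not used for the levels, were above the 3 reads that a count of 0 allows at the Mir3071/Mir136 row. There were 4 such reads in replicate 1 and 6 in replicate 2, beside 2392 and 1394 on the row's own strand. Which of Mir3071 and Mir136 the reads of either strand belong to was not tested.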

How the results depend on the processing

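The call of Mir431 depended on the scaling and the test. Of the members, 1 was called with TMM, and 0 with total assigned counts (log2 ratio 0.97), 0 with DESeq2 size factors (0.98), 0 with no filter on low counts, which changes the TMM factors (0.96), and 0 with edgeR's exact test at an assumed biological coefficient of variation of 0.2. In that last test 1 member and 51 of 454 genes had an unadjusted p under 0.05, and 1 gene was called in place of 33. With total assigned counts 34 genes were called, 19 higher in replicate 2 and 15 in replicate 1, beside 22 and 11 with TMM. With at least 100 summed counts 16 of 285 genes were called, Mir431 among them (1.03). The combined share of 3.61% ran from 3.17% to 4.05% when a replicate was left out, was 3.27% with the unstranded column and 3.88% without Mir126a in the denominator. Mir433 went from 3624 to 3289 CPM with the unstranded column, where opposite-strand reads of other genes enlarge the total. The log2 ratio of Mir127 to Mir431 was 0.64 in replicate 1 and -0.58 in replicate 2. Of 65 alternatives that kept both replicates, 54 left the call in place or moved a value by less than the SD. With 2 libraries, leaving one out always moves a mean by less than the SD, so those alternatives say nothing of stability. The members' share of the region went from 21.3% to 17.0% with opposite-strand reads of listed genes without a row. This alternative, the ratio of Mir127 to Mir431 and the combined ratio were added after seeing the data. No paired analysis was possible because the libraries belong to 1 group. With 2 libraries, the SD is itself poorly known.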

Other observations

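The hairpin of Mir434 is built of a repeat, a feature noticed after its sequence was seen. The letters GAACCA occur 4 times in it, starting at bases 15, 39, 63 and 87 of the hairpin, counted from 1 at its 5′ end. Among 862 counted hairpins, 14 hold these letters (1.62%, searched on the strand of the hairpin), and Mir434 is the 1 hairpin that holds them more than once. The repeat reaches into both mature microRNAs: miR-434-5p ends with it and miR-434-3p carries it within its seed and the bases after it. The hairpin is printed with the mature arms in capitals.

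Mir434 hairpin: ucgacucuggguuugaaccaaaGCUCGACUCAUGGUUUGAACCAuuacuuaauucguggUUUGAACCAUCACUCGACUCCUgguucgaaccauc

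In the message of Rtl1 the seed match of miR-434-3p occurred 4 times and that of miR-434-5p 3 times, while each seed match of Mir433 and Mir127 occurred 1 time. The seed match of miR-431-5p occurred 3 times and that of miR-431-3p 2 times. For miR-434-3p, miR-434-5p and miR-431-5p, more than 1 of the matches lies in the stretch of the message opposite its own hairpin. These are counts of letters in 1 transcript, and no measure of binding was made.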
